A study of Mus musculus with 4 samples.

Results

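The reproducible GR cistrome of wild-type mouse liver consisted of 2739 genomic sites at which a GR peak was called in both of 2 biological replicates. GR, the glucocorticoid receptor, is a hormone-activated transcription factor of the nuclear receptor family. Upon binding corticosterone it enters the nucleus, where it can bind DNA directly at a GC response element (GRE), a pair of inverted arms with the sequences AGAACA and TGTTCT spaced 3 bases apart, or come to chromatin together with other factors. In the liver, GR is known for inducing the enzymes of gluconeogenesis and amino acid breakdown during fasting, and its rhythm follows the daily rise of corticosterone.

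GR ChIP-Seq was carried out with an antibody from Proteintech on chromatin of whole livers from male C57BL/6 mice of the E47+/+ genotype, fed chow and sacrificed at ZT 10. The methods give an age between 10 and 16 weeks. According to the sample labels the animals had received no treatment, but a supplementary description speaks of livers after Dex, a synthetic GC, and this conflict could not be settled from the peak lists. All cells of the tissue were processed together, and none of the samples compared here carries a mutation of E47.

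A site was counted as reproducible when peaks of replicate 1 and replicate 2 had 1 bp or more in common, and all peaks connected by such overlaps were merged. The members were thus chosen by the positions of the called peaks, and the overlap itself is a description. Of 8795 merged sites, 2739 (31.1%) were reproducible, 1474 (16.8%) were called in replicate 1 only and 4582 (52.1%) in replicate 2 only. They drew on 2817 of the 4291 peaks of replicate 1 and on 2752 of the 7334 peaks of replicate 2. Neither list holds read counts, heights or q-values, so that the depth behind a peak is unknown. Intervals of shares are 95% Wilson intervals and those of odds ratios 95% Woolf intervals, and both cover counting error only. Peaks of 1 library are not replicates, and the p-values describe these lists and not the spread between animals.

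At the edge of the rule, the smallest overlaps that still counted were 4 bp at a site near Gm30505, 22 bp at the Iws1 promoter and 40 bp at the Chac1 promoter. Just outside it, peaks near Jun abutted with a gap of 0 bp, and peaks near Asah1 and Fmo5 were 10 bp and 18 bp apart. Most members were far from this edge. Among the 2830 overlapping pairs of peaks the median overlap was 342 bp, 54.3% covered the whole of the shorter peak and 63 pairs covered under 50% of it. A single peak of each replicate made up 2671 of the sites. The median site was 553 bp wide (quartiles 426 and 766 bp), and all members together covered 2.12 Mb.

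To give examples of GREs within these sites, the best match was read from the mm10 sequence at 12 of the genes with the most sites and of the classic GC target genes. The arms of the GRE are in capitals, each sequence is the plus strand from 5′ to 3′, and the genes are ordered by mismatches to the arms.

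Slc38a4: gacgctcAGAACActcTGTTCTgagaaca

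Alb: tctgctcAGAACAccaTGTTCTtatctca

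Fkbp5: aaagcctAGAACAagcTGTTCTcaaacaa

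Angptl4: acaacagAGAACAaaaTGTTCTgaggttg

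Bcl6: tcccttgAGAACAcccTGTGCTcacatcc

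Ppp1r3b: tgagcaaAGAACAcacTTTTCTtttttag

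Ahcy: gaaggcaAGAACAtttTGTTCCttgcatg

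Per1: tcaggctGGAACAtccTGTTCTcagcgct

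Errfi1: ctctcccAGAACAtcaTGTGCTcaccact

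Tat: cctccgtAGTACAggaCGTTCTagctact

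Zbtb16: tgctttgGGTACAgtgTGTTCTtggagac

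Pck1: ctgaggtAGCTCAggtTGTTCTgctccac

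The sequences of Slc38a4 (chr15:97019935-97019963, in a promoter), Alb (chr5:90424844-90424872, intergenic), Fkbp5 (chr17:28442412-28442440, in intron 1) and Angptl4 (chr17:33774884-33774912, in the 3' UTR) had 0 mismatches among the 12 specified bases. A single mismatch was present at Bcl6 (chr16:24043977-24044005, intergenic), Ppp1r3b (chr8:35418008-35418036, intergenic), Ahcy (chr2:155052813-155052841, intergenic), Per1 (chr11:69099409-69099437, in a promoter) and Errfi1 (chr4:150755565-150755593, intergenic). Tat (chr8:109987947-109987975, intergenic), Zbtb16 (chr9:48737594-48737622, in intron 3) and Pck1 (chr2:173157533-173157561, in the wide site annotated as promoter) had 2 mismatches at best. The 12 examples lean towards few mismatches, as other genes of these groups with 2 at best, among them Ptpn1 and Irf2bp2, were not printed. A match is a sequence description and was not tested for binding.

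Taken over the whole width of the members, 370 sites (13.5%) held a GRE with up to 2 mismatches. Wider sites offer more positions for a match, and no background of the same widths was counted beside this share. The best match had 0 mismatches in 12 sites, 1 in 77 and 2 in 281. Besides the sites of Slc38a4, Alb, Fkbp5 and Angptl4, those 12 comprised 2 assigned to Acnat2 and 1 each to BC002163, Tulp1, Mapk13, Zhx3, Plk3 and 4933431G14Rik, genes that were named after their matches were seen. Tulp1, Fkbp5 and Mapk13 lie on chromosome 17, where the site nearest to Tulp1 began at 28420148, that of Fkbp5 at 28442267 and that of Mapk13 at 28760806. Among the genes with the most sites, no match was found in the members at Pim3 and Rxra. Matches at Mir122, on chromosome 18, are not reported here, so that its sites count neither way. Of the 20 classic GC target genes with a site, Tsc22d3, Sgk1, Dusp1, Mt1, Cdkn1a, Ddit4, Nfkbia, Cebpb, Cebpd and Tdo2 had none, which says only that these letters were not present.

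To see how the reproducible sites were spread over genes, each site was assigned to the nearest gene of the deposited annotation. The 2739 sites fell to 2029 gene symbols, apart from 1 site without a symbol. A single site was found at 1584 genes (78.1%), 2 sites at 292, 3 at 87, 4 at 41 and 5 or more at 25. The 445 genes with 2 or more sites thus made up 21.9% of the genes and held 42.1% of the sites. The 25 genes at the top held 145 sites, or 5.29%, and 15 genes had 5 or more sites when peak centres had to lie within 250 bp of each other.

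The gene with the most sites was Ptpn1, which encodes a tyrosine phosphatase that dampens insulin and leptin signalling. It had 9 reproducible sites, from 11 called peaks in replicate 1 and 10 in replicate 2. The Ptpn1 sites comprised 1 at the promoter and 8 in intergenic sequence between 71233 and 108520 bp upstream, with nothing reproducible in the 70933 bp between. All 8 upstream sites were narrow, from 360 to 795 bp, and 5 of them formed a chain of 16829 bp.

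Several of the genes with the most sites encode regulators of transcription. Irf2bp2, a transcriptional corepressor, had 8 sites, from 10 and 9 peaks in replicates 1 and 2, and every site lay upstream, between 450 and 142180 bp. Bcl6, a zinc finger repressor that restrains lipid genes in the liver, had 7 sites from 7 and 12 peaks. Its promoter site was 4724 bp wide, which came from a peak of 4724 bp in replicate 2 and of 861 bp in replicate 1, and the other 6 sites lay from 4664 to 101120 bp upstream. Zbtb16, a zinc finger factor and classic GC target, had 7 sites from 11 and 10 peaks, all in introns 2 and 3 between 89020 and 111750 bp downstream of its TSS and none at the promoter. Klf9, a Krüppel-like factor that is also a classic GC target, had 6 sites from 6 and 10 peaks, 1 at the promoter and 5 from 4311 to 105876 bp upstream. For Rxra, the partner of many nuclear receptors, 5 sites were counted from 6 and 7 peaks, the promoter site 171 bp and the farthest 79700 bp upstream.

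Other genes with many sites encode enzymes, transporters and regulators of glucose, glycogen or amino acid metabolism, a grouping made by hand and not tested. Slc38a4, an amino acid transporter of the hepatocyte, had 7 sites from 10 peaks in replicate 1 and 9 in replicate 2, of which 2 were promoter and 5 intronic. Ppp1r3b, the subunit that directs protein phosphatase to glycogen in the liver, had 7 sites from 9 and 8 peaks. They were arranged as a promoter site between 3 sites 157033 to 169022 bp upstream and 3 sites 29556 to 41189 bp downstream. Tat, the tyrosine aminotransferase and a textbook GC target, had 6 sites from 8 and 9 peaks within 18441 bp. G6pc, which encodes the catalytic subunit of glucose-6-phosphatase, had 5 sites from 10 and 7 peaks within 28718 bp. Ahcy and Mat1a, enzymes of the methionine cycle, had 5 sites each.

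At Tat and G6pc, the sites covered much of the transcribed region. The Tat promoter site was 4881 bp wide (4454 bp in replicate 1 and 4816 bp in replicate 2), and it was followed by sites of 2046 bp over exon 8 and 2667 bp over the 3' UTR, separated by gaps of 827 and 176 bp. At G6pc, the promoter site spanned 7587 bp, of which peaks of replicate 1 made up 3646 bp, and the 3' UTR held another site of 2894 bp. The 3 sites upstream of Tat were 569 to 750 bp wide and those upstream of G6pc 385 to 1776 bp. At both loci the site over the promoter was the widest.

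The remaining genes of the first 20 encode secreted, signalling or other proteins. Alb, which encodes serum albumin, had 5 sites from 11 peaks in replicate 1 and 5 in replicate 2. Apoa1, the main protein of HDL, had 5 sites from 7 and 5 peaks. Tsku, a secreted proteoglycan made by the liver, and Pim3, a serine/threonine kinase, had 6 sites each. Herpud1, a component of protein degradation at the ER, Slc45a1, a sugar transporter, and Mir122, the precursor of the liver microRNA miR-122, had 5 each. Tex14, known for its role in the intercellular bridges of germ cells, had 6 sites, all from a single peak in each replicate and 998 to 1294 bp wide. Nearest-gene assignment does not show which gene a site acts on. With the nearest protein-coding TSS of GENCODE vM21 as the rule, 23 of the 25 genes kept 5 or more sites, the exceptions being Mir122, whose 5 sites fell to Alpk2, and Slc29a1, of whose 5 sites 2 fell to Hsp90ab1. By that rule 31 genes had 5 or more sites, among them Foxo1 with 7.

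**Figure D1:**
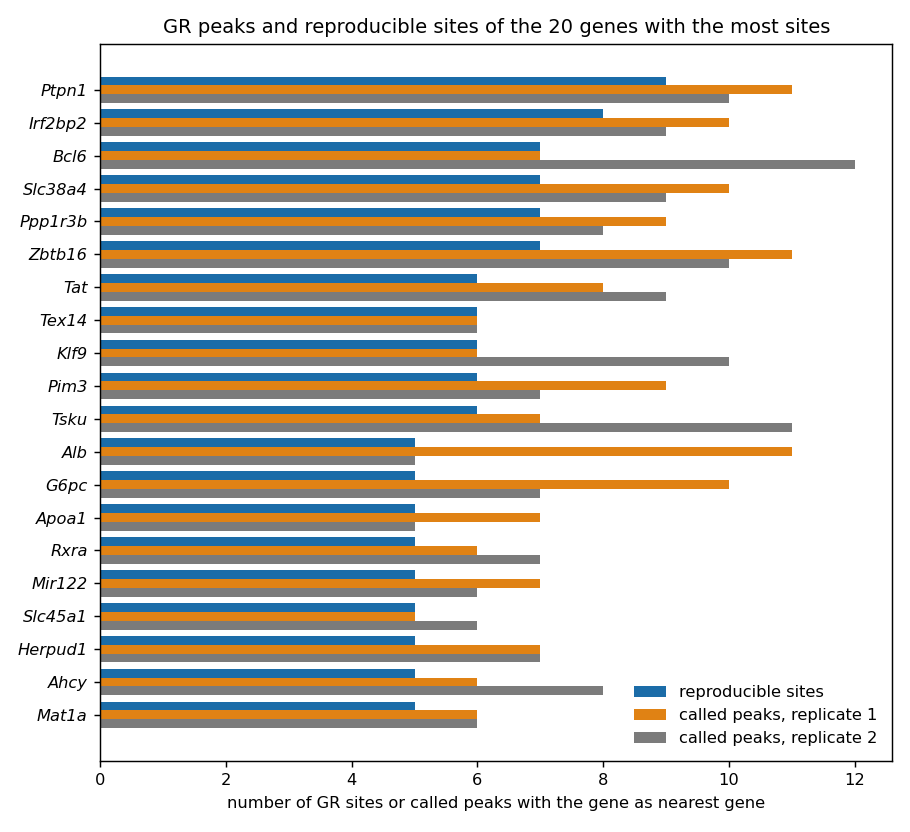
Number of reproducible GR sites (blue) and of called peaks in replicate 1 (orange) and replicate 2 (grey) for the 20 genes with the most sites. Ptpn1 leads with 9 sites, and Bcl6 (7 against 12 peaks) and Alb (11 against 5 peaks) show the 2 replicates calling unequal numbers of peaks at the same gene.

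Foxo3, Slc29a1, Tns1, Zmiz1 and Nr1i2 completed the 25 genes with 5 sites each. Of the 25, 22 had a promoter site, the exceptions being Zbtb16, Slc45a1 and Tns1. Across all 2029 genes, 1214 (59.8%) had a site at the promoter. Among the 445 genes with 2 or more sites, 270 (60.7%) combined a promoter site with sites elsewhere and 151 (33.9%) had sites outside the promoter only. The median span from the first to the last site was 15522 bp for these 445 genes and 43198 bp for the 25. More sites were therefore spread over longer stretches and seldom spared the promoter. Both spans and promoter shares rise with the number of sites counted, and no test was made of them.

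**Figure D2:**
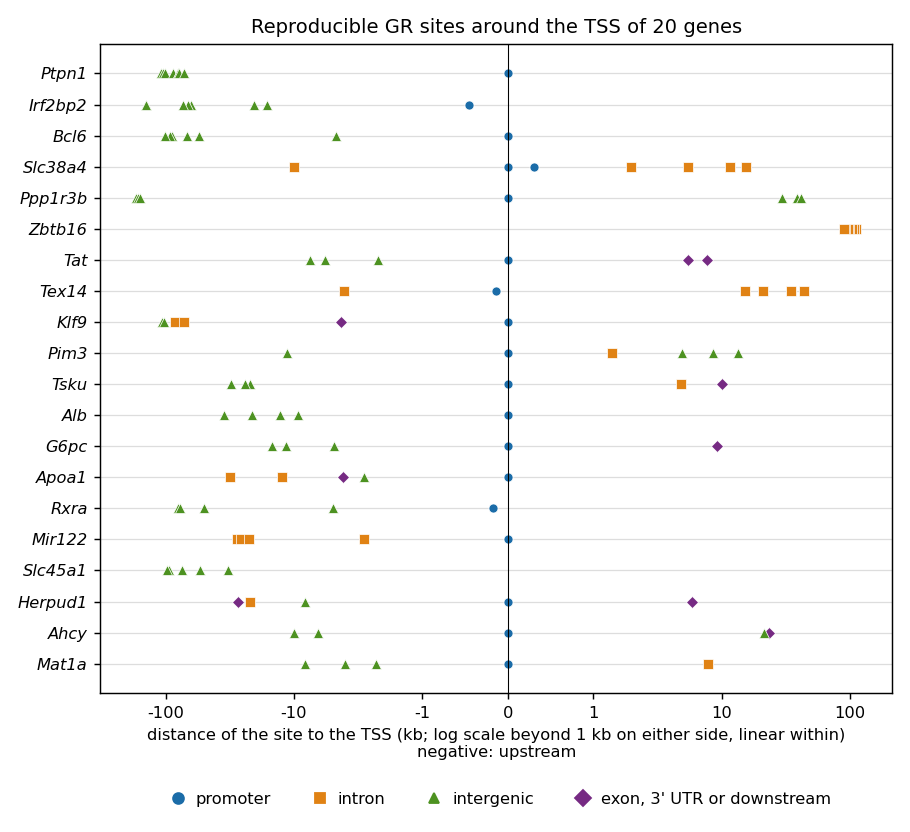
Position of each reproducible GR site relative to the TSS for the same 20 genes, in kb on an axis that is linear within 1 kb of the TSS and logarithmic beyond, with the gene feature given by colour and symbol. Ptpn1, Irf2bp2, Bcl6, Klf9, Alb, Apoa1, Rxra, Mir122 and Slc45a1 have no site downstream of the TSS, and all sites of Zbtb16 lie about 100 kb downstream of it.

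The gene lists were read against the share of all protein-coding genes. Of 21924 protein-coding genes, 1813 were the nearest gene of at least 1 reproducible site, which is 8.27%. Among 22 classic GC target genes, 20 had a site. Together they held 59 sites, from 7 at Zbtb16 to 1 at Mt1, Mt2, Cdkn1a, Ddit4, Nfkbia and Tdo2. Igfbp1 and Lcn2 were the exceptions, Igfbp1 with a peak in each replicate that did not overlap and Lcn2 with no peak in either list. The lists were chosen with earlier results of these data known.

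Several classic targets showed distinct arrangements. Pck1, the rate-limiting enzyme of gluconeogenesis, had 4 sites, of which a single one of 8532 bp (8532 bp in replicate 1 and 8284 bp in replicate 2) covered the promoter and beyond, and 3 of 545 to 820 bp lay 4787 to 8926 bp upstream. Fkbp5, a cochaperone that lowers the affinity of GR for its ligand, had 4 sites from 4 and 7 peaks, the farthest 43460 bp downstream of the TSS and holding the exact GRE printed above. Per1, a clock gene induced by GCs, had 3 sites within 4890 bp. Tsc22d3, which encodes the anti-inflammatory protein GILZ, had 3 sites over 56964 bp. Errfi1, an inhibitor of EGF receptor signalling, had 4 sites from 53562 to 97871 bp upstream, in addition to the broad site over the gene that is described below.

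Of 17 genes of hepatocyte transcription factors, 15 were the nearest gene of a reproducible site, with 33 sites among them. Nearest did not always mean close. The only site of Foxa1 lay 101305 bp downstream of its TSS and that of Nr5a2 74102 bp upstream. The sites of Prox1 lay 33733 bp upstream and 62127 bp downstream. Nr1i2, the xenobiotic receptor PXR, had 5 sites, and Rxra had 5. Foxa2, Cebpa, Ppara and Nr0b2 had 3 sites each, and Hnf4a and Onecut1 had 1 at the promoter. The site at Onecut1 was 6037 bp wide. Nr1i3 had no peak in either replicate.

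Of 19 circadian clock genes, 10 had a reproducible site, and 15 had a GR peak in at least 1 replicate. Tef, a PAR bZIP output factor, had 4 sites, Per1 had 3, and the repressors Per2 and Bhlhe40 had 2. Cry2, Nr1d1, Hlf, Nfil3, Bhlhe41 and Rora had 1 each. Dbp, another PAR bZIP factor, had 4 peaks in replicate 2 and 0 in replicate 1, and was therefore not among the reproducible genes. Clock, Npas2 and Ciart had no peak in either list.

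As a check of the tissue, 17 of 20 hepatocyte markers had a reproducible site, including Alb, Apoa1, Cps1 and Ass1, against 3 of 30 markers of 5 other cell types. The share over all protein-coding genes was 8.27%. Those 3 were Pecam1, Stab2 and Lyve1, out of 6 endothelial markers, with 4 sites, none of them at a promoter. None of the 7 Kupffer cell, 6 stellate cell, 5 cholangiocyte and 6 lymphocyte markers was nearest to a reproducible site. Within the hepatocyte list, Ambp, Hpx and Cyp3a11 were the exceptions, Hpx with 6 peaks in replicate 2 and 0 in replicate 1. ChIP-Seq of whole tissue cannot tell more cells of a type from more binding per cell.

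Promoters were the most frequent gene feature among the members. A promoter, which by the deposited distances, as no source states its limits, reached from 1000 bp upstream to 500 bp downstream of a TSS, was touched by 1252 of the 2739 sites (45.7%, 43.9 to 47.6%). Intergenic sequence held 684 sites (25%, 23.4 to 26.6%) and introns 611 (22.3%, 20.8 to 23.9%). Exons (73 sites), 3' UTRs (56), the regions just downstream of genes (43) and 5' UTRs (20) made up the rest. Of the intronic sites, 281 lay in the first intron (46.0%, 42.1 to 50%), 103 in the second, 56 in the third and 171 in later ones.

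Members lay between the 2 sets of unshared sites in this respect. Of the sites called in replicate 1 only, 221 of 1474 were at promoters (15.0%, 13.3 to 16.9%), and of those called in replicate 2 only, 2960 of 4582 (64.6%, 63.2 to 66.0%). Against all 6056 unshared sites together, of which 52.5% were at promoters, the odds ratio of members was 0.761 (0.695 to 0.833, two-sided Fisher's exact test, p = 3.22e-09). This pooled value joined 2 opposite differences. Against replicate 1 only the odds ratio was 4.77 (4.06 to 5.61, exact p = 2.12e-95), and against replicate 2 only it was 0.461 (0.419 to 0.508, exact p = 3.42e-56). The members took 65.6% of the peaks of replicate 1 and 37.5% of those of replicate 2, and the part of these unequal lists in the comparison was not tested.

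The distance to the nearest TSS followed the same order. The median over all members was 1789 bp, and 1083 sites (39.5%) lay over a TSS, with a distance of 0. Sites of replicate 1 only had a median of 10743 bp and sites of replicate 2 only one of 0 bp. Of the members, 592 (21.6%) were between 10 and 50 kb from a TSS, 190 (6.94%) between 50 and 100 kb and 121 (4.42%) farther than 100 kb. Outside promoters, 1487 members had a median distance of 15020 bp (quartiles 5412 and 40162 bp), and 688 were upstream and 799 downstream of the TSS. Intergenic members were farther away, with a median of 22423 bp against 11718 bp for intronic members. The site farthest from any TSS lay 1390457 bp upstream of Slc10a2, the ileal bile acid transporter.

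**Figure D3:**
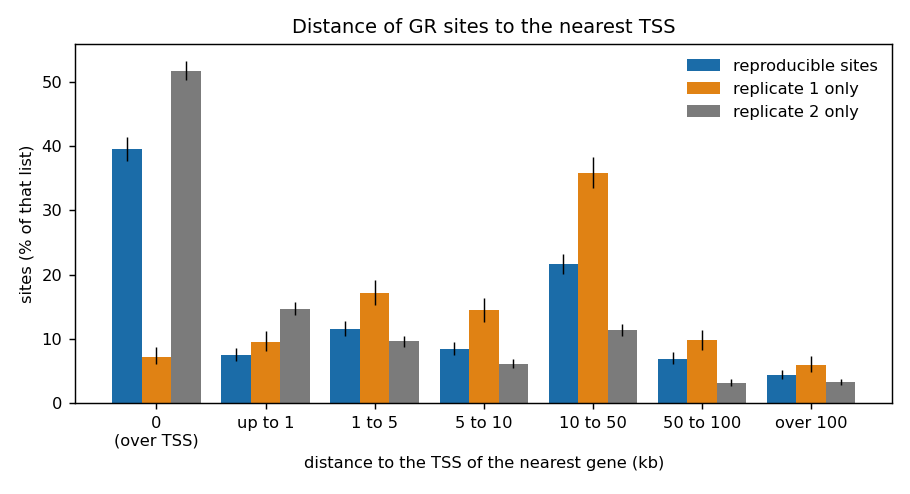
Share of reproducible GR sites (blue), of sites called in replicate 1 only (orange) and in replicate 2 only (grey) in 7 ranges of distance to the nearest TSS, in percent of each list, with 95% Wilson intervals as error bars. Reproducible sites lie between the other lists at the TSS (39.5% against 7.26% and 51.7%) and at 10 to 50 kb (21.6% against 35.8% and 11.4%).

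Most reproducible sites stood alone, and a minority gathered in groups. The median distance from a site to the next was 41767 bp (quartiles 6440 and 233923 bp). Another member lay within 1000 bp of 193 sites (7.05%), within 5000 bp of 594 (21.7%) and within 10000 bp of 827 (30.2%). When sites less than 10 kb apart were linked, 1912 (69.8%) were isolated, 496 (18.1%) formed 248 pairs and 331 (12.1%, 10.9 to 13.4%) were in 93 clusters of 3 or more. The clustered share was 5.77% with links of up to 5 kb and 19.4% with links of up to 20 kb. The closest pair, 156 bp apart, was at the promoter of Sardh, an enzyme of sarcosine breakdown.

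Clusters were compact and often belonged to 1 gene. Of the 93, 60 had 3 sites, 18 had 4, 12 had 5, 2 had 6 and 1 had 7, and the median span was 11910 bp. All sites of a cluster had the same nearest gene in 65 clusters, and 66 clusters included a promoter site. Single sites of a cluster were nonetheless less often at promoters than isolated sites, 25.4% (21.0 to 30.3%) against 51.2% (49.0 to 53.4%), and more often intergenic, 36.9% against 22.5%. These shares are given without a test. The definition of a cluster bears on them, because 3 or more separate sites rarely fit within the promoter of a single gene.

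The cluster with the most sites was that of Zbtb16, with 7 sites in 23450 bp of introns 2 and 3 (chr9:48723476-48746925) and gaps of 876 to 5298 bp. Tat followed with 6 sites (chr8:109982324-110000764) and Slc38a4 with 6 sites in 31076 bp (chr15:97019468-97050543). The clusters of 5 sites included those of G6pc, Pim3 and Mat1a, each with 1 nearest gene. Others were shared by neighbours, namely Apoa1 with Apoc3, apolipoproteins of adjacent genes, in 20385 bp, Slc25a25 with Ptges2 in 16069 bp, Nat8f2 with Nat8 in 25474 bp and Tef with Tob2 in 14766 bp. Where clusters of 5 sites tied, those named cover the most sequence. Of all 15 clusters of 5 or more sites, 10 held a promoter site, and the Zbtb16 and the Tef and Tob2 clusters did not.

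Some sites were much wider than the rest, and these differed between the replicates. Of the 2739 members, 105 were wider than 2000 bp and 27 wider than 5000 bp, and 60.7% were wider in replicate 2. The widest, of 20609 bp, was assigned to 1700045H11Rik and covered the whole of Errfi1, a classic GC target. It was a single peak of 20609 bp in replicate 2 and 7 peaks with a sum of 9895 bp in replicate 1. The site over Alb, of 18073 bp, likewise joined 1 peak of 17971 bp in replicate 2 with 7 of 9121 bp in sum in replicate 1. At Alas1 (17441 bp), the first enzyme of heme synthesis, replicate 1 contributed 1564 bp in 2 peaks, at Cyp2e1 (12873 bp), a cytochrome P450 of ethanol metabolism, 1024 bp in 1 peak, and at the carboxylesterase gene Ces3a (11045 bp) 346 bp in 1 peak. The last 2 sites were thus broad in replicate 2 and ordinary in replicate 1. Merged width and sites per gene depend on how each replicate was divided into peaks, as 55 members held more than 1 peak of replicate 1 and 13 more than 1 of replicate 2.

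Reproducible sites occurred on all 19 autosomes and were scarce on chromosome X. The autosomes held 0.762 (chromosome 3) to 1.73 sites per Mb (chromosome 11), with 1.11 on average, and 8.21 to 18.7 sites per 100 protein-coding genes, with 13.1 on average. Sites per Mb rose with protein-coding genes per Mb across the 19 autosomes (Pearson's r = 0.732, Spearman's rho = 0.758), a description of chromosomes that share the same libraries. Chromosome X held 10 sites, which is 0.0585 per Mb and 1.05 per 100 protein-coding genes, and chromosome Y held 0. Both replicates had few peaks on X, with 13 in replicate 1 (0.0760 per Mb, against 1.74 on autosomes) and 38 in replicate 2 (0.222 per Mb, against 2.96). Of the 10 X-linked sites, 3 were at Tsc22d3, 1 was at the promoter of Pgrmc1, which encodes a heme-binding membrane protein, 1 was in an intron of F9, the coagulation factor IX, and 1 was in an intron of Pfkfb1, the liver enzyme that sets the level of fructose-2,6-bisphosphate. The other 4 were intergenic, from 49941 to 371506 bp from the TSS. The mice were male, and the part of the single X in the low count was not tested.

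**Figure D4:**
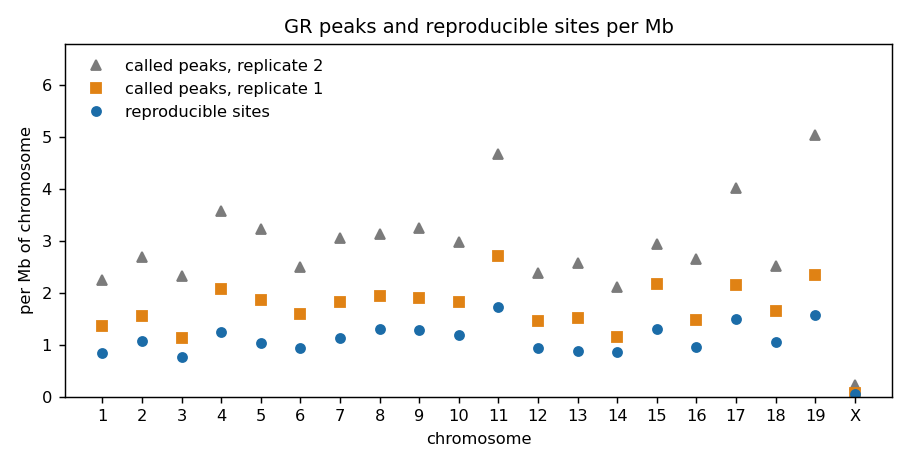
Reproducible GR sites (blue) and called peaks of replicate 1 (orange) and replicate 2 (grey) per Mb of each chromosome. Autosomes hold between 0.762 and 1.73 reproducible sites per Mb, and chromosome X lies near 0 in all 3 series.

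To ask whether the reproducible sites differed in sequence from sites called in 1 replicate only, motif matches were sought within a central window of 200 bp in every site up to 2000 bp wide. GREs were allowed up to 2 mismatches in the arms. Another 7 motifs were searched on both strands without mismatches, namely C/EBP (TTGCNNAA), HNF4 (CAAAGTCCA), FOX (TGTTTAC), STAT (TTCNNNGAA), the E-Box CACGTG, ETS (CCGGAAG) and the GC box (GGGCGG), of which none contains another although different matches can overlap. CACGTG is a single form of CANNTG, the E47 consensus that the study found enriched near GREs. The other forms were not searched, so the E-Box values here do not test that consensus. Promoter and other (distal) sites were compared separately, and the 24 two-sided Fisher's exact tests were adjusted together by the Benjamini-Hochberg method.

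Among distal sites, the GRE was more frequent in members than in unshared sites. It was found in 182 of 1461 members (12.5%, 10.9 to 14.2%) and in 169 of 2849 unshared sites (5.93%, 5.12 to 6.86%), an odds ratio of 2.26 (1.81 to 2.81, adjusted exact p = 1.45e-11). The difference held against either set, with 6.23% in replicate 1 only (odds ratio 2.14, adjusted exact p = 7.37e-07) and 5.70% in replicate 2 only (odds ratio 2.35, adjusted exact p = 1.44e-09). In windows that flanked the distal members it was 2.03%. Intronic members (13.8%, 11.3 to 16.8%) and intergenic members (11.8%, 9.61 to 14.5%) had overlapping intervals. The GC content of distal members, 49.7%, was close to that of replicate 1 only (49.5%) and replicate 2 only (48.8%).

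The C/EBP motif, bound by factors that open hepatocyte enhancers, was the most frequent of the other motifs in distal members. It was present in 19.4% of them and in 15.8% of unshared distal sites, an odds ratio of 1.28 (1.09 to 1.51, adjusted exact p = 0.0186). Against replicate 1 only the odds ratio was 1.24 (adjusted exact p = 0.140). HNF4 (1.98% against 1.79%), FOX (6.50% against 5.34%), E-Box (4.86% against 5.05%), ETS (1.30% against 1.76%) and GC box (8.35% against 7.69%) matches did not pass the test, with adjusted exact p-values from 0.383 to 0.900. STAT matches were found in 10.3% of members and 12.5% of unshared sites (adjusted exact p = 0.162). The HNF4, E-Box, STAT and GC box values joined odds ratios of opposite direction. Against replicate 1 only and replicate 2 only, they were 0.956 and 1.27 for HNF4 and 0.838 and 1.08 for the E-Box. Neither HNF4 nor the E-Box passed the test against either set. For STAT, the share was 5.43% in replicate 1 only (odds ratio 2.01, adjusted exact p = 3.18e-05) and 18% in replicate 2 only (odds ratio 0.524, adjusted exact p = 1.53e-08). For the GC box it was 4.31% in replicate 1 only (odds ratio 2.02, adjusted exact p = 0.000127) and 10.3% in replicate 2 only (odds ratio 0.79, adjusted exact p = 0.167). All these tests compare GR sites with GR sites. In windows that flanked the distal members, the shares were 8.61% for C/EBP, 0.4% for HNF4, 2.22% for FOX and 5.63% for STAT. They were 2.76% for the E-Box, 0.618% for ETS and 3.23% for the GC box. Every flank share was below that of distal members, without a test, and the GC content of the flanks was also lower (45.9%).

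At promoters, GREs were rare in every set. They were present in 19 of 1173 members (1.62%, 1.04 to 2.52%) and 18 of 3164 unshared sites (0.569%, 0.360 to 0.898%), an odds ratio of 2.88 (1.5 to 5.5, adjusted exact p = 0.0180). Against replicate 1 only, with 5 of 221, the direction was the opposite (odds ratio 0.711, 0.263 to 1.93, adjusted exact p = 0.870). The call was also lost with a window of 100 bp (adjusted exact p = 0.230), with up to 1 mismatch (0.231) and with up to 3 mismatches (0.162). In windows that flanked the promoter members the share was 1.45% (1.03 to 2.04%), and over all protein-coding promoters it was 0.912%. The ETS motif, found in promoters of housekeeping genes, was less frequent in promoter members (8.27%) than in unshared promoter sites (12.5%), an odds ratio of 0.632 (0.501 to 0.798, adjusted exact p = 0.000961). This difference came with replicate 2 only (12.8%, odds ratio 0.615), whereas replicate 1 only had 8.60% (odds ratio 0.958, adjusted exact p = 0.933). GC boxes were present in 59.2% of promoter members, 57.8% of unshared promoter sites and 40.0% of all protein-coding promoters. In promoter sites of replicate 1 only the share was 42.1% (odds ratio of members 1.99, adjusted exact p = 3.21e-05), and in those of replicate 2 only it was 59%. The GC content was 66.6% in promoter members, 63.3% in promoter sites of replicate 1 only and 67% in those of replicate 2 only. It was 58.5% over all protein-coding promoters and 47.6% in the flanks of promoter members. The part of GC content in the GRE and GC box shares was not tested.

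**Figure D5:**
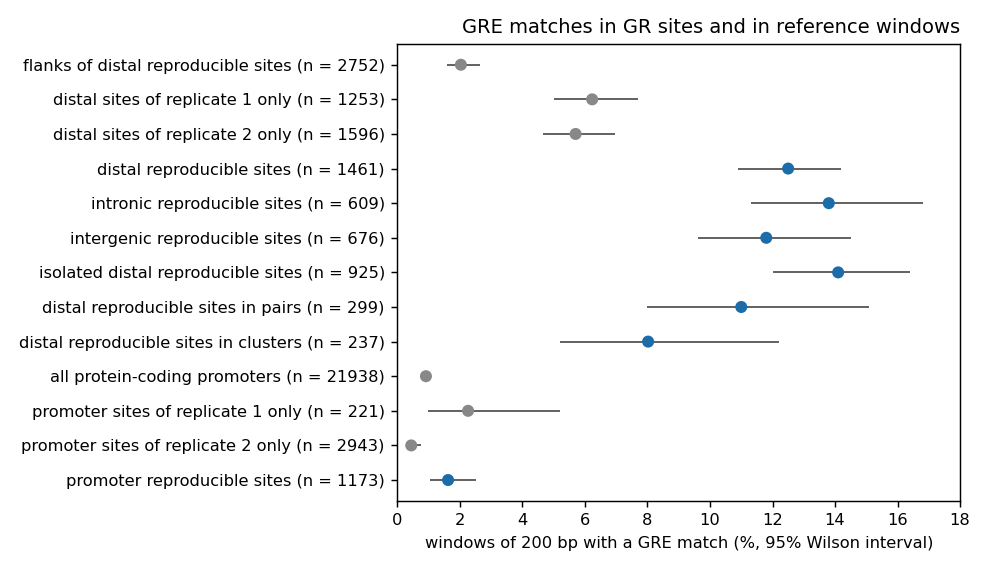
Percentage of 200 bp windows with a GRE match of up to 2 mismatches, with 95% Wilson intervals, for reproducible GR sites (blue) and for other windows (grey), with the number of windows in brackets. Distal reproducible sites (12.5%) lie above distal sites of replicate 1 only (6.23%) and replicate 2 only (5.70%), and promoter sites lie below 3% in all lists.

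Clustered and isolated distal members were compared in the same way. A GRE was found in 19 of 237 clustered sites (8.02%, 5.19 to 12.2%) and 130 of 925 isolated sites (14.1%, 12.0 to 16.4%), with 33 of 299 paired sites (11%) between them. The odds ratio of clustered against isolated sites was 0.533 (0.322 to 0.882), which did not pass the test after adjustment (exact p = 0.0121, adjusted p = 0.0583). Of the 6 alternatives, only a linking distance of 20 kb passed (odds ratio 0.558, adjusted exact p = 0.0227), and the other 5, among them a linking distance of 5 kb (odds ratio 0.519), had adjusted exact p-values from 0.0557 to 0.495. C/EBP matches were in 21.5% and 20.1% of them (odds ratio 1.09, 0.768 to 1.54). The other 6 motifs did not pass the test either, with adjusted exact p-values from 0.668 to 1. Sites of 1 cluster lie close together on the genome and are not independent of each other.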

How the data were processed

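GR ChIP-Seq peaks of 2 wild-type mouse livers were analysed, and the E2A samples of the series were not used here. The authors aligned reads to mm10, removed duplicates, kept 18 mio uniquely mapped read pairs per GR library and called and annotated peaks in each replicate separately. The submitters' processing notes name BWA 0.7.13, Picard 1.119 and MACS2 2.1.0, and the methods of the study give other versions of Picard and MACS2. Deposited values are peak start, end, width and distance to the TSS in bp, with no normalization and no counts, so that the depth behind a peak is unknown. The control and peak threshold are not given in the sources used here. Replicate numbers follow the sample titles, which are opposite to those in the list names.

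From these lists, overlapping peaks were merged, and a merged site took the first class of promoter, 5' UTR, 3' UTR, exon, intron, downstream and intergenic found among its peaks, and the gene and distance of the peak nearest to a TSS. Motifs were counted in the GRCm38 RefSeq genome, and promoters and coding genes came from GENCODE vM21, in which 1972 of 1974 matched genes overlapped their deposited position (99.9%). Flanks began 500 bp from the site edges. The named genes are the 20 with the most sites (ties to the larger covered length), those of the 10 clusters with the most sites and of the 5 widest sites, and members of 9 gene lists, of which some are not reported here by name. Each printed sequence is the match with the fewest mismatches at its gene, and not every gene with a match was printed. Members and lists were chosen with earlier results of these data known. Shares were compared by two-sided Fisher's exact tests, with Woolf intervals for odds ratios. The alternatives changed the overlap rule, linking distance, motif window, mismatches, annotation and replicates. The tools were samtools 1.23.1 and Python 3.11.15 with scipy 1.17.1, pandas 2.3.3, pysam 0.24.0 and statsmodels 0.14.6, and the code was tested on simulated data.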

Additional observations from a re-analysis of the deposited data

How the results depend on the processing

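A count of sites in 1 replicate alone gave 4291 to 7334 sites, a promoter share of 34.3 to 57.4%, a median distance to the TSS of 47 to 4901 bp, 79 to 121 genes with 5 or more sites and 18.9 to 20.2% of sites in clusters. Requiring peak centres within 250 bp gave a promoter share of 43.3%, 15 genes with 5 or more sites and 8.69% of sites in clusters. The clustered share was 5.77% with a linking distance of 5 kb and 19.4% with 20 kb. The odds ratio of the promoter share reversed to 4.77 against sites of replicate 1 only. For the GRE at promoters, the odds ratio was 0.711 against replicate 1 only, and it did not pass the test with a window of 100 bp (3.61), with up to 1 mismatch (5.41) or with up to 3 mismatches (1.39). Clustered against isolated GRE shares passed with a linking distance of 20 kb (0.558) and in none of the other 5 alternatives, where the odds ratios were 0.38 to 0.672 and the adjusted exact p-values 0.0557 to 0.495. The causes were not tested. No paired analysis was possible because 1 group of 2 samples was studied and no groups were compared. The distal GRE comparison passed in every alternative run, with odds ratios from 1.84 to 2.80. Peak height and depth per site were unknown, so that sites could not be ranked by strength.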
